A study of Mus musculus with 8 samples.

Results

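Genes that write, maintain or read DNA methylation, 8 in all, were followed in single mouse embryos: the methyltransferase genes Dnmt1, Dnmt3a, Dnmt3b and Dnmt3l, the maintenance factor gene Uhrf1, and the methyl-CpG-binding protein genes Mbd1, Mbd2 and Mbd3. They were chosen by name, with earlier results of these data known. All 8 were among the 21182 gene symbols of the deposited table, and all 8 passed the filter on low values, which asked for 1 RPKM or more in 4 of the 8 embryos. RPKM, a read number scaled for the length of the gene and the depth of the library, is given per unit length, so levels can be set roughly side by side between genes. The gene lengths behind the deposited values are not known. Levels of different genes and their ratios depend on those lengths.

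RNA was sequenced from whole C57BL/6 embryos at embryonic day E6.75, the onset of gastrulation. There were 4 Control embryos, whose columns carry the name 123WT, and 4 embryos labelled Tet1/2/3 TKO, a triple knockout of the TET dioxygenase genes. Each embryo was 1 library. The labels give neither the alleles nor a Cre driver, a litter, a sex or a batch. They do not say how the embryos were dissected, and nothing besides genotype is said to differ between the groups.

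DNA methylation in mammals is set on cytosines of CpG dinucleotides. Dnmt3a and Dnmt3b encode the de novo methyltransferases, and Dnmt3l encodes a partner without catalytic activity of its own that stimulates both. Dnmt1 copies the marks onto the new strand after replication, guided by Uhrf1, which binds hemimethylated CpG. Around implantation the epiblast gains methylation over most of its genome, while extraembryonic tissues keep lower levels. TET enzymes oxidise methylcytosine and so oppose these enzymes. Mbd1 and Mbd2 encode readers of methylated CpG, whereas mammalian Mbd3 binds methylated DNA only weakly and, like Mbd2, is a subunit of the NuRD deacetylase complex.

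The promoters of the 3 de novo genes are shown because these genes share a task but differ in the CpG content of their own start regions. Each window runs from 250 bases before to 50 bases after an annotated start (RefSeq, GRCm38.p6), and capitals mark CpG. The RPKM table was made on another build, mm9, and has no coordinates of its own. Where RefSeq lists several windows, the one with the most CpG is shown. The search was for CG, which reads the same on both strands.
Dnmt3b, chr2:153649199-153649498, + strand: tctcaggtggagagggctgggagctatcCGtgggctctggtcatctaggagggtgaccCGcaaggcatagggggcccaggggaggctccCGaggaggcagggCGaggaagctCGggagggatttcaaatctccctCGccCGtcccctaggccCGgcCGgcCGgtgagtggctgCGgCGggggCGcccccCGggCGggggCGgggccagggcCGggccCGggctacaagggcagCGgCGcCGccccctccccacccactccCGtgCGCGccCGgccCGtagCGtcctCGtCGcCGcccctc
Dnmt3a, chr12:3806910-3807209, + strand: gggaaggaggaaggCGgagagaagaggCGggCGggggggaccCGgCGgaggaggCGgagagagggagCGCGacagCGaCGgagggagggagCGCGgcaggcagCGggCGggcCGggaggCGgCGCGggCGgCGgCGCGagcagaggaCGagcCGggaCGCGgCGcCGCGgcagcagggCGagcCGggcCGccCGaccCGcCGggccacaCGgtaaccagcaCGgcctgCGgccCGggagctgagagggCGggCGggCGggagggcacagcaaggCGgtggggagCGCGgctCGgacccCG
Dnmt3l, chr10:78042037-78042336, + strand: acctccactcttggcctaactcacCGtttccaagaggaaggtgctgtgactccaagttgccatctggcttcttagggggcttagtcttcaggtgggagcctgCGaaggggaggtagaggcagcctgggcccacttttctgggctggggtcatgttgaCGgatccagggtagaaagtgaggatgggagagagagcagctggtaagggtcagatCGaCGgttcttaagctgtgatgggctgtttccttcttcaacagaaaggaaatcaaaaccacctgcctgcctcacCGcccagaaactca
The Dnmt3b window holds 30 CpG, a number reached by 11.7% of all 32851 windows of 300 bases. The Dnmt3a window holds 47, reached by 1.44%, and the Dnmt3l window 6, reached by 56.4%. The median window holds 7 CpG. Further Dnmt3a windows hold 46 CpG and, at chr12:3891494-3891793, 18, a number reached by 29.7% of windows. The other 2 Dnmt3l windows hold 4 and 3. Among the 8 genes, windows on the chromosome of Mbd1 and Mbd2 were left out, so windows of 6 of the 8 remained. The deposited values are 1 per gene, so they do not tell which start was used.

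Estimated depth was 12.38 to 16.42 M reads (M, 1000000 reads) in Control and 9.9 to 18.96 M in TKO-labelled embryos. At that depth the rough number of reads behind a value ran from 95.1 for Mbd1 to 28300 for Dnmt3b. Taken as independent reads, these give a Poisson counting error of up to 10.3% for Mbd1 and 7% or less for the other 7 genes. RNA was amplified before sequencing, and error from that step is not included. Tet1, the targeted TET gene most active in the epiblast, was at 5.04, 5.25, 4.93 and 5.76 RPKM in Control and at 15.3, 9.50, 9.21 and 11.7 RPKM in TKO-labelled embryos, so its transcript was not lost. Tet2 went from a mean of 0.725 RPKM in Control to 0.784 RPKM, and Tet3 from 1.85 to 1.38 RPKM. One value per gene does not show whether targeted exons were missing, and the label is therefore quoted throughout. All 12 epiblast and all 12 visceral endoderm markers were detected in every embryo, as the tissue label implies. Maternal decidua markers were detected too, at very unequal levels: Prl8a2, the decidual prolactin, ranged from 1.32 to 354 RPKM.

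Dnmt3b stood far above the other members. It averaged 320.4 RPKM over the 8 embryos and ranked 264th among all 21182 symbols. Uhrf1 followed at 54.9 RPKM and Mbd3 at 52.2 RPKM. Then came Dnmt3l at 19.9, Dnmt1 at 16.5, Dnmt3a at 14.04, Mbd2 at 7.84 and Mbd1 at 1.47 RPKM. Dnmt3b exceeded Uhrf1 in all 8 embryos, by 4.67- to 7.49-fold. Mbd3 was above Dnmt3l, Dnmt3a above Mbd2, and Mbd2 above Mbd1 in all 8 as well. The other neighbours were not apart by this measure: Uhrf1 was above Mbd3 in 5 embryos, Dnmt3l above Dnmt1 in 6, and Dnmt1 above Dnmt3a in 7. The plot of levels shows the same order in both groups except that the mean of Mbd3 lay above that of Uhrf1 in TKO-labelled embryos.

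**Figure D1:**
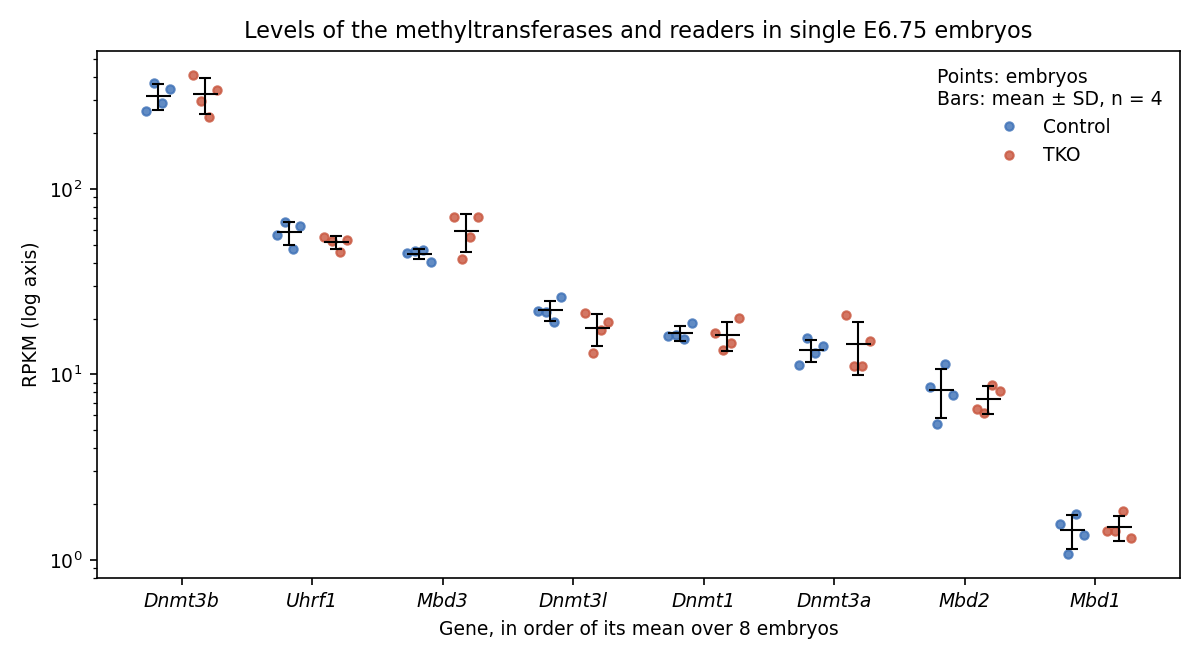
RPKM of the 8 genes on a log axis, in order of their mean over 8 embryos. Points are embryos (4 Control, 4 TKO-labelled) and bars the mean ± SD. Dnmt3b, between 244 and 413 RPKM, lies above every other gene, and the 2 groups overlap for every gene.

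No member passed the threshold between the groups. Over all 10451 tested genes, limma with Benjamini-Hochberg adjustment called 0.00957% (1 gene, higher in TKO-labelled embryos), and of the 8 members it called 0. At an unadjusted limma p under 0.05 stood 1 of the 8, Mbd3, against 17.5% of all tested genes (13.9% higher and 3.6% lower in TKO-labelled embryos). The groups were free of overlap for 0 of the 8, against 9.41% of all tested genes (7.55% higher and 1.86% lower). The median log2 difference of the members was -0.02, beside 0.09 over all tested genes, with 4 members positive and 4 negative. Of all tested genes 66.5% had a positive difference, and 53.6% after median-ratio scaling, which brings the median gene close to 0. Leaving out TKO replicate 1 raised the number of called genes to 29 higher and 7 lower, and still 0 of them was a member. Parietal endoderm markers, of the cells that lay down Reichert's membrane, had positive differences in all 12 tested of 13, with 0 past the threshold, 1 free of overlap, a median of 1.33 and sums of 159 to 317 RPKM in Control and 265 to 940.2 RPKM in TKO-labelled embryos, where replicate 1 lay inside the Control range. Their part in the members' differences was not tested. A missed threshold does not show equal levels, and each gene's interval is given with its values.

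**Figure D2:**
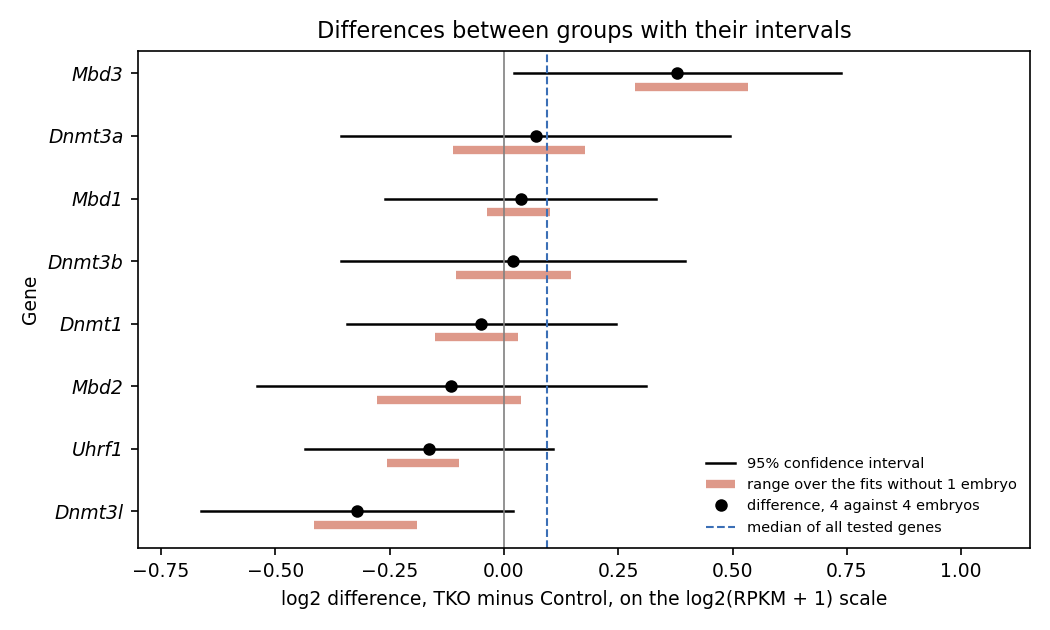
Log2 difference of each gene, TKO-labelled minus Control, on the log2(RPKM + 1) scale, with its 95% confidence interval (black) and the range over the 8 fits that each left out 1 embryo (red). The interval of Mbd3, 0.02 to 0.74, is the one that does not include 0; the dashed line is the median of all tested genes, 0.09.

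Among the de novo genes, the ranges of Dnmt3b and Dnmt3a in TKO-labelled embryos enclosed those in Control. Dnmt3b, the main de novo enzyme of the epiblast, was at 263, 371, 290.02 and 344 RPKM in Control replicates 1 to 4 and at 413, 298, 244 and 341 RPKM in TKO-labelled replicates 1 to 4. The highest and the lowest of the 8 values were both TKO-labelled, so the groups overlapped fully. Means were 317 ± 49.4 and 324 ± 71.3 RPKM (SD, n = 4 each), which differed by 0.02 on the log2 scale (limma adjusted p = 0.965, 95% confidence interval -0.36 to 0.40). Dnmt3a was at 11.2, 15.6, 13.0 and 14.2 RPKM in Control and at 21.0, 11.1, 11.1 and 15.2 RPKM in TKO-labelled embryos. Replicate 1 was the highest TKO-labelled embryo for both genes. The log2 difference of Dnmt3a was 0.07 (interval -0.36 to 0.49, limma adjusted p = 0.878), and it was -0.11 without that embryo.

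The balance of the 2 enzymes was narrow. The ratio of Dnmt3a to Dnmt3b RPKM was 0.0428, 0.0421, 0.0447 and 0.0412 in Control embryos, a mean of 0.0427 ± 0.00148 (SD, n = 4). In TKO-labelled embryos it was 0.0508, 0.0373, 0.0454 and 0.0446, a mean of 0.0445 ± 0.00556. Dnmt3b thus made up 95.2% to 96.4% of their summed RPKM in every embryo, a share that depends on the unknown gene lengths used. The log2 difference of the ratio was 0.05 (exact two-sided permutation p = 0.629, also 0.629 adjusted over the 4 ratios computed), and -0.01 without TKO replicate 1.

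Dnmt3l, the catalytically inactive partner, had the most negative difference of the 8. It was at 21.95, 21.6, 19.2 and 26.0 RPKM in Control and at 21.4, 13.0, 17.3 and 19.1 RPKM in TKO-labelled embryos. TKO replicates 2, 3 and 4 lay below all Control embryos and replicate 1 lay inside their range. Means were 22.2 ± 2.84 and 17.7 ± 3.55 RPKM (SD, n = 4 each), a log2 difference of -0.32 (interval -0.66 to 0.02, limma adjusted p = 0.312). The difference ran from -0.19 without TKO replicate 2 to -0.42 without TKO replicate 1, and was -0.40 after median-ratio scaling. It was -0.18 with the parietal endoderm and -0.52 with the epiblast level as covariate. An exact two-sided permutation gave p = 0.0571, where 0.0286 is the smallest possible with 4 against 4 embryos. Relative to Dnmt3b, Dnmt3l was at 0.0836, 0.0581, 0.0661 and 0.0756 in Control and at 0.0518, 0.0436, 0.0710 and 0.0559 in TKO-labelled embryos. The log2 difference of that ratio was -0.36 (exact two-sided permutation p = 0.114, 0.286 adjusted over the 4 ratios), with overlapping groups.

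The maintenance pair showed small differences. Dnmt1, the maintenance methyltransferase, was at 16.1, 16.3, 15.6 and 19.0 RPKM in Control and at 16.8, 13.5, 14.7 and 20.1 RPKM in TKO-labelled embryos, which spread on both sides of the Control values. Its log2 difference was -0.05 (interval -0.34 to 0.25, limma adjusted p = 0.874). Uhrf1, its guide to hemimethylated DNA, was at 56.2, 66.5, 47.7 and 62.7 RPKM in Control and at 55.1, 52.4, 45.7 and 53.1 RPKM in TKO-labelled embryos. All TKO-labelled values lay within or just under the Control range, and replicate 3 was the lowest embryo of each group. Means of Uhrf1 were 58.3 ± 8.26 and 51.6 ± 4.07 RPKM, a log2 difference of -0.16 (interval -0.44 to 0.11, limma adjusted p = 0.506). It ran from -0.099 without Control replicate 2 to -0.26 without Control replicate 3, and was -0.076 with the parietal endoderm and -0.36 with the epiblast level as covariate. Uhrf1 exceeded Dnmt1 by 2.64- to 4.08-fold in RPKM, and the log2 difference of their ratio was -0.11 (exact two-sided permutation p = 0.457, 0.610 adjusted over the 4 ratios).

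Among the readers, Mbd3 had the most positive difference of the 8 genes. Mbd3, the NuRD subunit, was at 45.1, 46.5, 46.6 and 40.5 RPKM in Control and at 70.9, 42.0, 54.9 and 70.8 RPKM in TKO-labelled embryos. TKO replicates 1, 3 and 4 lay above all Control embryos and replicate 2 lay inside their range. Means were 44.7 ± 2.86 and 59.6 ± 14.0 RPKM (SD, n = 4 each), and the Control values spread by 6.41% of their mean, the narrowest of the 8 genes. The log2 difference was 0.38 (interval 0.02 to 0.74, limma p = 0.0398, adjusted p = 0.263), and the exact two-sided permutation p was 0.114. It remained between 0.29 and 0.53 when any 1 embryo was left out, and did not pass the threshold in any of those fits. After median-ratio scaling it was 0.29 (limma adjusted p = 0.412). With the epiblast level as covariate it was 0.20 (limma adjusted p = 0.744), and with the parietal endoderm level 0.68 (adjusted p = 0.221).

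Mbd2, the methyl-CpG-binding alternative to Mbd3 in NuRD, was at 8.54, 5.42, 11.4 and 7.74 RPKM in Control and at 6.48, 6.20, 8.78 and 8.14 RPKM in TKO-labelled embryos. Control embryos held both the highest and the lowest value. The log2 difference was -0.12 (interval -0.54 to 0.31, limma adjusted p = 0.783), and 0.04 without Control replicate 3. Mbd2 ran at 0.189, 0.117, 0.244 and 0.191 of the Mbd3 level in Control and at 0.0914, 0.148, 0.160 and 0.115 in TKO-labelled embryos. The log2 difference of this ratio was -0.51 (exact two-sided permutation p = 0.143, 0.286 adjusted over the 4 ratios). Mbd1, a reader that also carries CXXC zinc fingers, was the lowest member at 1.08 to 1.77 RPKM in Control and 1.31 to 1.82 RPKM in TKO-labelled embryos (log2 difference 0.04, interval -0.26 to 0.33, limma adjusted p = 0.908).

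The TKO-labelled embryos differed among themselves in the same way for most members. Replicates 1 and 4 were both above replicates 2 and 3 for 6 of the 8 genes: Dnmt1, Dnmt3a, Dnmt3b, Dnmt3l, Uhrf1 and Mbd3. The same held for 29.3% of all tested genes, and the pattern was noticed after the values were seen. Replicates 1 and 4 were also the 2 shallowest TKO-labelled libraries, at 9.9 and 11.72 M reads against 14.16 and 18.96 M. Their epiblast markers summed to 875 and 656 RPKM, against 580 and 466 RPKM in replicates 2 and 3. Parietal endoderm markers summed to 265 and 611 RPKM there against 717 and 940.2 RPKM. The part of depth and of tissue makeup in this order was not tested. In bulk embryos, fewer cells of a type and less RNA per cell cannot be told apart.

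Dnmt3b followed the epiblast markers within each group. The 12 markers, which include Pou5f1 (Oct4), Nanog, Fgf5, Otx2 and Utf1, summed to 384, 507, 398 and 454 RPKM in Control replicates 1 to 4, and no marker was at 0 in any embryo. Dnmt3b rose through the 4 Control embryos in the same order as this sum, and likewise through the 4 TKO-labelled embryos. Dnmt3a had this order in both groups as well. The share of all tested genes with this order was not counted. After the values were seen, Dnmt3b was also divided, embryo by embryo, by the epiblast level, the geometric mean of RPKM + 1 over the 12 markers. The quotient was 10.24, 10.47, 10.23 and 10.53 in Control and 7.74, 7.76, 7.48 and 8.30 in TKO-labelled embryos. Spread within a group shrank to an SD of 0.159 about a Control mean of 10.4 and of 0.345 about a TKO-labelled mean of 7.82, and the groups no longer overlapped.

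This separation has to be read against the markers themselves, most of which had positive differences. Their list median was a log2 difference of 0.43, with 0 of 12 past the threshold. Of the 12, 10 were positive, beside 66.5% of all tested genes, and 1 was free of overlap, beside 9.41%. Their sums overlapped, at 384 to 507 RPKM in Control and 466 to 875 RPKM in TKO-labelled embryos. On the scale of the quotient by epiblast level, the median tested gene stood at 0.808 of its Control level and Dnmt3b at 0.754. Dnmt3a was at 0.787, Dnmt3l at 0.591, Uhrf1 at 0.664 and Dnmt1 at 0.724 of their Control levels. Of the readers, Mbd3 was at 0.978, Mbd2 at 0.667 and Mbd1 at 0.777. Every TKO-labelled embryo lay below every Control embryo for 4 of the 8 members (Dnmt3a, Dnmt3b, Dnmt3l and Uhrf1), as for 11.3% of all tested genes. A quotient by the plain sum of the 12 markers added Dnmt1, making 5 of 8, against 14.1% of all tested genes. With Utf1 left out of that sum, which stood at 238 and 155 RPKM in TKO replicates 1 and 4 and at 49.3 to 74.3 RPKM in the other 6 embryos, the same 4 genes were apart, again against 14.1%. In a fit over all genes with the epiblast level as covariate, Dnmt3b had a log2 difference of -0.44 (limma adjusted p = 0.215) and Dnmt3l one of -0.52 (adjusted p = 0.310). With the parietal endoderm level as covariate in its place, Dnmt3b had one of 0.38 (adjusted p = 0.417), so the sign depended on which marker level was the covariate.

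**Figure D3:**
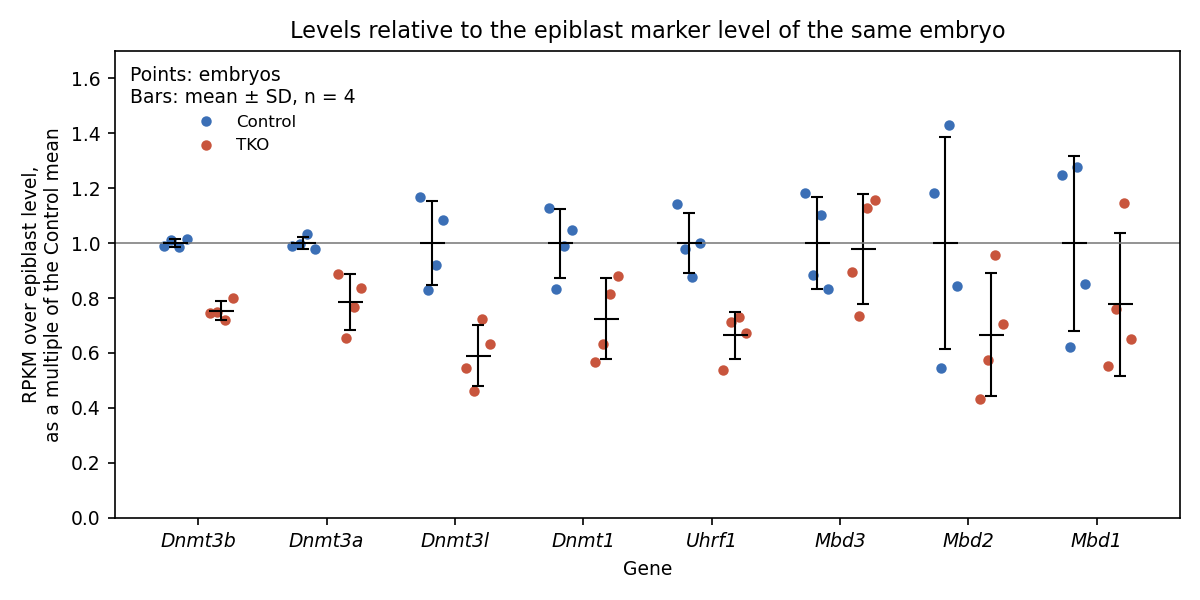
RPKM of each gene divided by the epiblast level of the same embryo, as a multiple of the Control mean; points are embryos and bars the mean ± SD (n = 4). Dnmt3b shows the smallest spread within groups, with TKO-labelled embryos around 0.754, while the median of all tested genes on this scale was 0.808.

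Within each group, Mbd2 and Mbd1 were highest, and Uhrf1 lowest, in the embryo with the most maternal decidua RNA. All 10 decidua markers were in the table, none at 0 in any embryo, and they summed to 259, 16.9, 532 and 338 RPKM in Control and to 57.3, 39.2, 445 and 101 RPKM in TKO-labelled embryos. Prl8a2 alone gave 336 RPKM of the sum in Control replicate 3 and 354 RPKM in TKO replicate 3. Replicate 3 was highest in each group, as it was for Mbd1 and Mbd2 and for 5.02% of all tested genes. By the mean log2(RPKM + 1) of the markers it was highest in each group too, at 3.69 and 2.87. On that scale Control replicate 4, at 3.09, lay above TKO replicate 3. TKO replicate 3 was also highest in parietal endoderm markers and in those of the ectoplacental cone and trophoblast giant cells, at 219 RPKM against 17.2 to 62.2 RPKM in the other TKO-labelled embryos. The part of these tissues was not tested. Replicate 3 was lowest in each group for Uhrf1, as for 8.56% of all tested genes. Through the 4 TKO-labelled embryos Mbd2 rose in the order of the decidua sum, from 6.20 to 8.78 RPKM. The share of all tested genes with this order was not counted. In Control the order broke: replicate 4 had more decidua RNA than replicate 1 but less Mbd2, 7.74 against 8.54 RPKM. It also had less Mbd1, 1.35 against 1.56 RPKM, and more Uhrf1, 62.7 against 56.2 RPKM. The Control embryo with the least decidua RNA, replicate 2, had the lowest Mbd2 and the highest Uhrf1 and Dnmt3b of its group. TKO replicate 2, with the least of its group, had the lowest Mbd2 but also the second lowest Uhrf1 and Dnmt3b. With both replicates 3 left out, the log2 difference of Mbd2 was -0.04 (limma adjusted p = 0.948) and that of Uhrf1 -0.20 (adjusted p = 0.486). With the decidua level as covariate they were 0.03 (adjusted p = 0.923) and -0.23 (adjusted p = 0.348). Of 9 blood markers listed, 5 had values, and Hba-a1, Hba-a2, Hbb-b1 and Hbb-b2 had none. S100a8, a neutrophil gene, and S100a9 were highest in replicate 3 of each group. S100a8 was at 26.8 and 18.7 RPKM in the 2 replicates 3 and listed at 0 in Control replicate 2. S100a9 was at 1.97 and 2.04 RPKM in the 2 replicates 3 and at 0.137 RPKM in Control replicate 2. Ltf, Ngp and Ptprc were at 0.246 RPKM or less in every embryo.

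**Figure D4:**
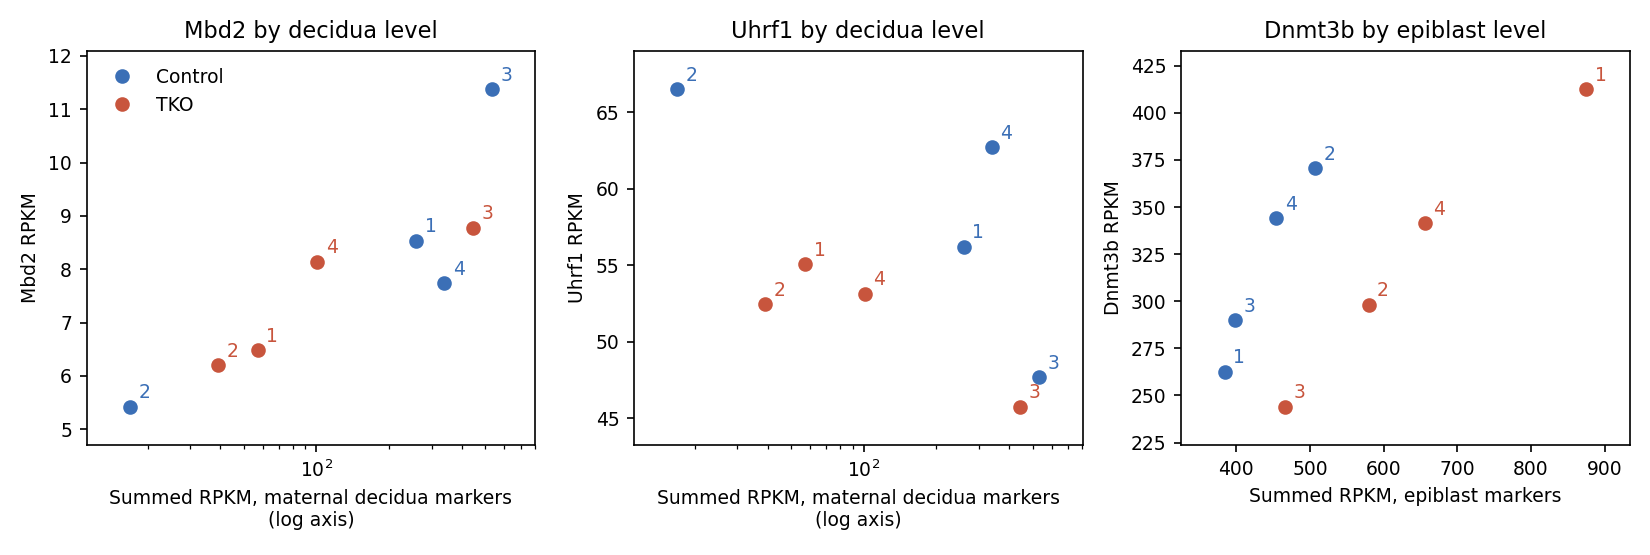
RPKM of Mbd2 and Uhrf1 against the summed RPKM of 10 maternal decidua markers (log axis), and of Dnmt3b against that of 12 epiblast markers, with 1 point per embryo and its replicate number. Replicate 3 lies at the right of its group for decidua, with the highest Mbd2 and lowest Uhrf1, and TKO-labelled points lie to the right of Control points of similar Dnmt3b.

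The proteins that work with the DNA methyltransferases showed 0 of 18 genes past the threshold. Of these 18, 13 had positive and 5 negative differences (66.5% positive over all tested genes), with a median of 0.09, equal to that of all tested genes. Pcna, the replication clamp that recruits Dnmt1, averaged 320.4 and 312 RPKM (log2 difference -0.03). Trim28, the KRAB zinc finger corepressor, averaged 183 ± 14.1 and 218 ± 66.6 RPKM (0.20, limma adjusted p = 0.607), with 296 and 250.1 RPKM in TKO replicates 1 and 4 and 162 and 163 RPKM in replicates 2 and 3. Its difference was 0.036 without TKO replicate 1, 0.61 with the parietal endoderm level as covariate and -0.23 with the epiblast level. Cdca7, a zinc finger protein that activates the remodeller Hells, averaged 84.4 and 85.3 RPKM (0.01). Only Cbx5, which encodes HP1 alpha, had groups without overlap, at 34.4 ± 1.90 and 41.5 ± 3.00 RPKM (0.26, limma adjusted p = 0.225), and it was singled out after its values were seen. Groups without overlap were found for 9.41% of all tested genes.

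Of 12 other NuRD subunits 11 were tested, and 0 passed the threshold. Positive differences were found for 10 of the 11, as for 66.5% of all tested genes, with a median of 0.18. Rbbp7, a histone-binding subunit, averaged 170.2 ± 27.7 RPKM in Control against 257 ± 52.3 RPKM (0.58, limma adjusted p = 0.173). Hdac1, a deacetylase of the complex, averaged 86.6 and 100.3 RPKM (0.20), and Cdk2ap1 averaged 238 and 230.4 RPKM (-0.04). An unadjusted limma p under 0.05 was found for 4 subunits, Rbbp7, Gatad2a, Rbbp4 and Mta3, all higher, where 13.9% of all tested genes had such a p with a higher value. Gatad2a, which links the MBD proteins to the helicase Chd4, was at 25.2, 23.3, 22.9 and 21.2 RPKM in Control and at 35.4, 26.7, 29.4 and 35.7 RPKM in TKO-labelled embryos. Its groups did not overlap (0.43, limma adjusted p = 0.166), as for 9.41% of all tested genes, and it too was chosen after its values were seen.

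Other readers were scarce, and no gene of methyl donor supply passed the threshold. Of 7 further methyl-CpG readers 3 passed the filter and 0 the threshold: Mbd4, a glycosylase, at 3.54 and 3.75 RPKM, Mbd6 at 3.09 and 2.65 RPKM, and Zbtb33, or Kaiso, at 2.18 and 2.14 RPKM. Of 12 tested genes of methyl donor supply 9 were positive, beside 66.5% of all tested genes, with a median of 0.14 and 0 past the threshold. Ahcy, which clears the inhibitory product of methylation reactions, averaged 63.03 ± 8.28 and 88.2 ± 16.3 RPKM (0.47, limma adjusted p = 0.182). Mat2a, which makes S-adenosylmethionine, averaged 174 and 165 RPKM (-0.08), and Shmt1, of folate metabolism, 45.7 and 50.3 RPKM (0.12). Mtr and Mthfd1, both of the methionine and folate cycles, were the 2 of 12 genes whose groups did not overlap, beside 9.41% of all tested genes, and are named for that after their values were seen.

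On the demethylation side, 0 of 10 tested genes passed the threshold, and 8 were positive, beside 66.5% of all tested genes, with a median of 0.15. Tet1 and Tet3 had groups without overlap, in opposite directions (log2 differences 0.97 and -0.26, limma adjusted p 0.103 and 0.297). Of all tested genes 9.41% had such groups (7.55% higher and 1.86% lower in TKO-labelled embryos). Without TKO replicate 1 Tet1 passed the threshold (0.83, limma adjusted p = 0.0315). Apex1, the base-excision endonuclease, averaged 73.3 and 95.1 RPKM (0.36). Idh2, which can supply the TET cosubstrate, averaged 46.1 and 54.4 RPKM (0.25), and Ogt, which modifies TET proteins, 30.9 and 33.4 RPKM (0.12).

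Germline genes whose promoters are normally silenced by methylation were mostly low or under the filter in both groups. Of 19 such genes 10 passed the filter, all 10 with positive differences (66.5% over all tested genes), a median of 0.24 and 0 past the threshold. Ddx4, a germ cell helicase, averaged 6.98 ± 2.27 and 12.1 ± 3.30 RPKM (0.72, limma adjusted p = 0.182). Sycp3, a synaptonemal complex protein, averaged 17.1 and 19.98 RPKM (0.22). Rpl10l, a ribosomal protein retrogene whose reads may be shared with close copies, averaged 6.92 and 8.49 RPKM (0.02). Because genes passed the filter in part through the group where they were high, the count of positive differences is a description.

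**Figure D5:**
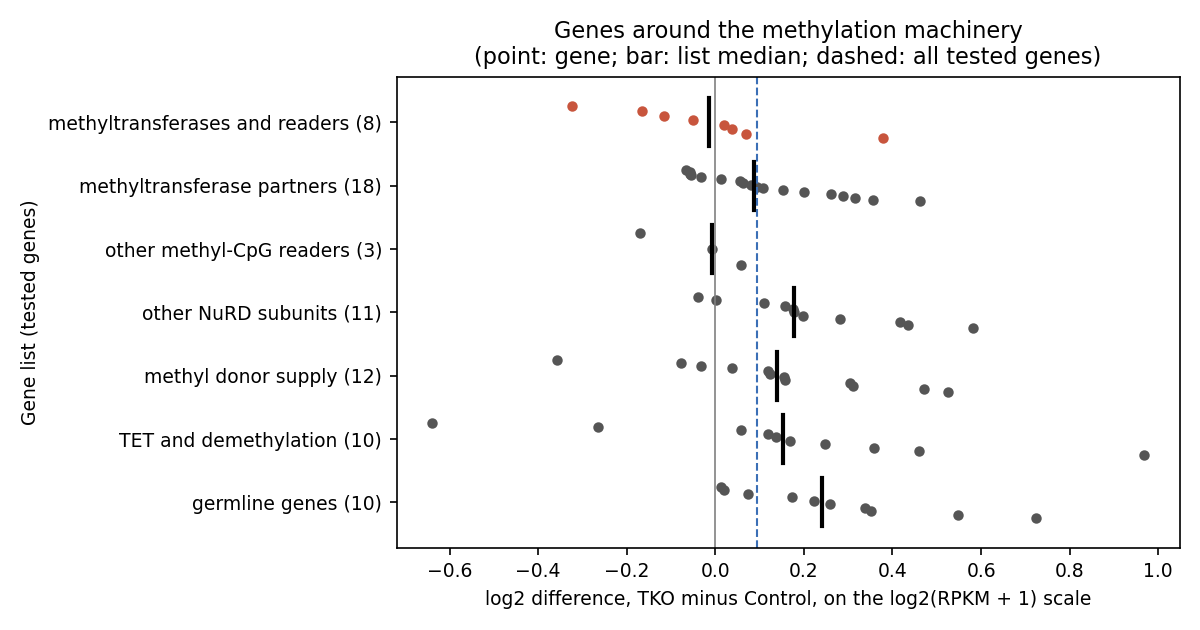
Log2 differences, TKO-labelled minus Control on the log2(RPKM + 1) scale, of the 8 genes (red) and of the tested genes of 6 surrounding lists (grey), with the median of each list (bar) and of all tested genes (dashed, 0.09). The median of the 8 genes is -0.02, that of the other NuRD subunits 0.18 and that of the germline genes 0.24.

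The genes whose levels followed each methyltransferase most closely over the 8 embryos were found among 6035 genes of at least 5 RPKM. Psme1, Zcchc3 and Pphln1 were closest to Dnmt3b, with Pearson r of 0.96, 0.96 and 0.95. Gpank1, Espl1 and Ppan were closest to Dnmt3a (0.99, 0.96 and 0.95). Dhx38, Id3 and Sdhaf1 were closest to Dnmt1 (0.98, 0.92 and 0.91), and H2-K1, D11Wsu99e and Cdk10 to Dnmt3l (0.96, 0.94 and 0.94). These are descriptions of 8 libraries that share differences in depth and tissue makeup, and with so many genes searched over 8 points high values are common.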

How the data were processed

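RNA of 8 individual embryos was amplified with a SMARTer kit, made into Nextera XT libraries and sequenced, per the labels' protocols. The deposited values are RPKM computed by the authors, 1 column per embryo. HTSeq, with no version, and build mm9 come from the submitters' processing notes; for aligner, annotation, read totals and strand use, the step is not given in the sources used here, and reads of overlapping or near-identical genes cannot be told apart. Read totals were estimated from the smallest RPKM values of genes with 1 transcript in GENCODE M21; whole reads could not be had for most genes, so count models were not used.

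The group test was that of limma (3.58.1, under R 4.3.3), with a variance trend, applied to log2(RPKM + 1) of the 10451 genes that reached 1 RPKM in 4 or more embryos. Its two-sided p-values were adjusted over all of these (Benjamini-Hochberg) and held against 0.05. This scale understates changes of low genes. Ratios used exact permutations of the 70 assignments of embryos. All p-values measure the spread between these 8 libraries alone. The 8 genes and all lists were chosen with earlier results of these data known. From each list the 3 genes with the highest mean are named. Alternatives changed the pseudocount, filter, scaling, block, covariates and embryos; the decidua covariate, the fit without replicates 3 and the quotients by epiblast level were added after seeing the data.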

Additional observations from a re-analysis of the deposited data

Results flagged for a closer look

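Of 66 groups of 4 embryos examined for a value far from the rest, 1 was singled out, and chance does so for about 1 group in 20. Tet2 was at 0.444 RPKM in Control replicate 2, against 0.795 RPKM in the nearest Control embryo.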

How the results depend on the processing

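No member passed the threshold under any of 16 alternatives (128 values, limma adjusted p 0.140 to 0.995), and 108 of the 128 values kept their direction; those of Dnmt3l, Uhrf1 and Mbd3 did so throughout. Genes called higher, 1 at first, numbered 0 without a filter, with the replicate block, with the decidua covariate and without replicates 3, 5 with the epiblast and 2 with the parietal endoderm covariate, and 0 to 29 when 1 embryo was left out. Genes called lower, 0 at first, numbered 1 with either of the epiblast and parietal endoderm covariates and 0 to 7 when 1 embryo was left out. Log2 differences changed sign as follows, and the cause was not tested. With median-ratio scaling: Dnmt3a -0.012, Dnmt3b -0.067, Mbd1 -0.013, Cdca7 -0.072, Rpl10l -0.056, Mbd4 -0.0085. With the epiblast covariate: Dnmt3a -0.43, Dnmt3b -0.44, Mbd2 0.21, Trim28 -0.23, Cdca7 -0.19, Shmt1 -0.056, Rpl10l -0.85, Mbd4 -0.15. With the parietal endoderm covariate: Mbd1 -0.048, Pcna 0.033, Cdk2ap1 0.14. With the decidua covariate: Dnmt3b -0.049, Mbd2 0.030, Cdca7 -0.025, Rpl10l -0.048, Zbtb33 0.0090. Without replicates 3: Rpl10l -0.029, Cdk2ap1 0.10. With a pseudocount of 0.1: Rpl10l -0.018. Leaving out 1 embryo gave ranges of -0.15 to 0.030 for Dnmt1, -0.11 to 0.18 for Dnmt3a, -0.11 to 0.15 for Dnmt3b, -0.038 to 0.10 for Mbd1, -0.28 to 0.037 for Mbd2, -0.12 to 0.035 for Pcna, -0.029 to 0.10 for Cdca7, -0.39 to 0.43 for Rpl10l, -0.15 to 0.044 for Cdk2ap1, -0.012 to 0.17 for Mbd4, -0.10 to 0.088 for Zbtb33 and -0.014 to 0.14 for the ratio of Dnmt3a to Dnmt3b. By the labels, same-numbered embryos share only a number. Their deviations correlated by -0.0045, 0.40, 0.26 and -0.021 for replicates 1 to 4. Differently numbered pairs ran from -0.46 to 0.20, so the pairs of replicates 2 and of replicates 3 were the highest of all. Whether same-numbered embryos shared a litter or a batch was not tested. With the replicate block, Mbd3 kept a log2 difference of 0.38 (limma adjusted p = 0.266) and Dnmt3l one of -0.32 (adjusted p = 0.265).

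Depth bears most on Mbd1. With 4 embryos a group the members' intervals run from as low as -0.66 (Dnmt3l) to as high as 0.74 (Mbd3).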
